A study of Rattus norvegicus with 15 samples.

Results

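The olfactory epithelium of each nostril was measured on its own array in 7 of 8 rats, and the transcripts described here are those that were most unequal between the nostrils of the same animal. They were chosen by their measured values. Of 41012 non-control probes on the array, 25133 were well above background on all 15 arrays. For each of these, the level was taken as log2 of the signal over the median of its array, and the absolute difference between nostrils A and B was averaged over the 7 rats. The 150 probes with the largest averages were kept, which is 0.597% of the probes measured, and they are called members below. Every difference between A and B given for them is therefore a description of how they were selected, and no test is attached to it.

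The animals were Brown Norway rats, an inbred strain, aged 6 weeks in the labels, with no treatment or transgene. Males 1, 2, 5 and 6 and females 3, 4, 7 and 8 made 4 rats of each sex, and male 1 gave only nostril A. The paper states that 2 males and 2 females came from each of 2 suppliers, and supplier was no term in the sex comparison. The labels call the nostrils A and B and do not say which is left or right. The study's methods say that the missing sample, dropped for RNA quality, was a left one, so nostril A of male 1, the only rat without B, would be the right. Whether A is the right in the other 7 rats is not stated, and a difference between A and B is therefore given here without a side. Each array held RNA of 1 nostril in 1 colour, which leaves no technical replicate of a nostril.

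The nasal cavity behind a nostril holds more than the sensory sheet. Olfactory sensory neurons send axons through the bone to the olfactory bulb of the brain, whose granule and periglomerular interneurons use GABA or dopamine. Respiratory and squamous epithelium, mucus glands, lateral nasal glands that secrete lipocalins (small proteins that carry odorants and pheromones), blood, marrow-containing bone and immune cells lie next to it.

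The arrays were even in signal. The median intensity ran from 57.4 to 83.0, and between 26233 and 28741 non-control probes were called well above background on an array. Olfactory neuron markers were bright: of 21 probes of the mature olfactory neuron list, 20 were measured on all 15 arrays, among them Omp, the olfactory marker protein, with a median level of 7.54, and Adcy3, the adenylyl cyclase of olfactory cilia, with 6.85. The 15 arrays lay on 4 slides. The 2 nostrils of a rat shared a slide in 6 of 7 rats, where A always lay at the neighbouring higher position, and the nostrils of rat 3 lay on different slides. The part of slide and position in the differences was not tested.

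The mean absolute difference ran from 0.81 to 3.27 on the log2 scale among the members, against a median of 0.12 over all probes measured. It passed 1 log2 unit, a 2-fold difference, in 81 members. The choice has no natural edge. Olfm3, AI171948 and TC539827 were the last 3 inside with 0.81 each, and Olr1431, LOC501251 and Dgkg were the first 3 outside with 0.81, 0.80 and 0.80. None of the 150 was higher in A in all 7 rats, and none was higher in B in all 7. Over all probes, 434 of 25133 (1.73%) had the same direction in all 7 rats.

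Members were dimmer than the rest, with a median level of 0.80 against 2.47 over all probes measured. The largest difference of a member was in rat 3 for 70 of 150 (46.7%), and rat 3 also held the largest difference for 29.0% of all probes. The median absolute difference of the members was 1.62 in rat 3, 1.20 in rat 4, 1.07 in rat 6, 1.06 in rat 7, 0.69 in rat 2, 0.57 in rat 8 and 0.50 in rat 5. Those of all probes lay between 0.08 and 0.15 in every rat.

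A few probe sequences are shown because the results turn on them. The first set holds the leading probe of each main tissue component, positioned on rat build rn3 as the array files give it: Obp2b, an odorant-binding lipocalin (chr3:3936682-3936741), XM_231034, described on the array as similar to a vomeronasal secretory protein (chr3:3885499-3885793, a span longer than the probe), Th, tyrosine hydroxylase (chr1:203318940-203318999), RatNP-3b, a neutrophil defensin (chr16:75335348-75335407), and S100a9, a calcium-binding protein of granulocytes (chr2:182937753-182937812).
Obp2b: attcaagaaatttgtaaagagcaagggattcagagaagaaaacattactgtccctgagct
XM_231034: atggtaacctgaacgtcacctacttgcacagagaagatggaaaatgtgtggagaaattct
Th: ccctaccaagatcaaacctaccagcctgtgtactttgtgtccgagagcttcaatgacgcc
RatNP-3b: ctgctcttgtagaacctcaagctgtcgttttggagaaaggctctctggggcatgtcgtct
S100a9: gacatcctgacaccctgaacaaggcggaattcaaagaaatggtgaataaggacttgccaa

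The second set holds 4 odorant receptor members that lie on chromosome 5 of build rn3, shown because near-identical receptor genes could share a signal. Olr837 lies at chr5:60267074-60267133, Olr839 at chr5:60301933-60301992, Olr841 at chr5:70028921-70028980 and Olr854 at chr5:76812701-76812760. The longest run of bases shared by any pair of these probes was 10, between Olr839 and Olr841. Probes were compared only with each other, not with transcripts of the other genes, so whether they share a signal was not tested.
Olr837: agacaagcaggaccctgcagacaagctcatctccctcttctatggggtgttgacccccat
Olr839: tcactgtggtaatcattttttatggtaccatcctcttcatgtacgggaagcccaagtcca
Olr841: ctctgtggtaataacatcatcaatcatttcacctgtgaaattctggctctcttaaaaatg
Olr854: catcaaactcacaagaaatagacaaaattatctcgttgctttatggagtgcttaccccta

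The third set holds 3 immunoglobulin kappa members. M14434 and M12822 share a run of 40 bases, in capitals, and so read overlapping stretches of the same kind of transcript, whereas U39609 shares no run over 5 bases with either.
M14434: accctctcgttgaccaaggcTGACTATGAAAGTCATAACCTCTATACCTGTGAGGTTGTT
M12822: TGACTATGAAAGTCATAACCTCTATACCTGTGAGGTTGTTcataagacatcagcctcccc
U39609: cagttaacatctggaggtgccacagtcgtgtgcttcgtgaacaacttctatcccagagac

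To see which tissue components the members mark, they were matched to 33 lists of marker genes. Members were found in 11 of these lists. On the neutrophil and marrow list, 6 of 10 measured probes were members (60%), and on the olfactory bulb and brain list 6 of 17 (35.3%). Adipocyte markers held 2 of 12, immediate early genes 2 of 22, interferon-response genes 2 of 24 and skeletal muscle 2 of 37. Nasal glands held 1 of 9, B and plasma cells 1 of 2, squamous epithelium 1 of 2 and respiratory secretory cells 1 of 20. Odorant receptors held 7 of 620 (1.13%), against 0.597% of all probes.

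Markers of the olfactory epithelium proper, odorant receptors aside, differed between nostrils about as much as all probes did. None of 20 mature olfactory neuron probes, 16 immature olfactory neuron probes, 9 of neurogenic basal cells, 20 of sustentacular and Bowman gland cells and 18 of microvillar cells was a member, but with 0.597% of all probes as members, lists of this size would hold few or none. The median of the mean absolute difference was 0.12, 0.12, 0.16, 0.12 and 0.15 in these lists, against 0.12 over all probes. None of 31 motile cilia probes, 23 bone probes, 23 cartilage probes, 8 red blood cell probes and 13 macrophage probes was a member either, although the bone and red blood cell lists had higher medians of 0.47 and 0.41.

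**Figure D1:**
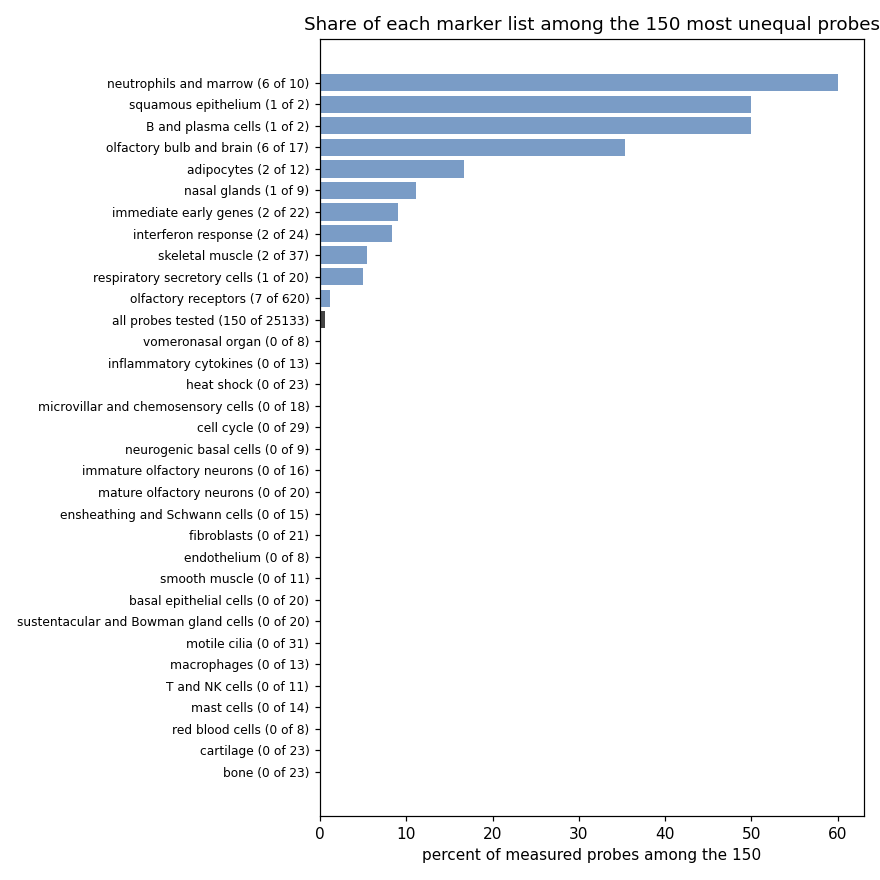
Horizontal bars give the percent of measured probes of each marker list that were among the 150 members, with counts in brackets, and the dark bar is all probes tested. The neutrophil and marrow list (60%) and the olfactory bulb and brain list (35.3%) had the highest shares among lists of 10 or more probes, and the members were chosen by these same differences.

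31 members stood on a list, so the others were also placed by their known function, after their values were seen. Transcripts of neurons and synapses made up 40 of 150, astrocytes 3, granulocytes 9, B cells and immunoglobulins 4, lipocalins and salivary proteins 4, surface epithelium and mucus 6, and odorant receptors 7. A further 38 had no gene name, and 29 fitted no role.

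Transcripts of neurons and synapses were the role with the most members, 40 probes placed there after their values were seen. They include the flagged Rimbp2 probe, and on the olfactory bulb and brain list itself 11 of 17 measured probes were not members. Slc32a1, which loads GABA and glycine into synaptic vesicles, ranked 22. Its levels in A and B were 2.33 and 3.11 in rat 2, 3.11 and -0.06 in rat 3, 3.17 and 1.96 in rat 4, 1.82 and 2.53 in rat 5, 2.79 and 1.46 in rat 6, 0.58 and 2.03 in rat 7, and 3.42 and 2.80 in rat 8. Nostril A was thus higher in rats 3, 4, 6 and 8 and B in rats 2, 5 and 7, and nostril B of rat 3 was the lowest of all 15 arrays.

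Th, the rate-limiting enzyme of dopamine synthesis and a marker of bulb periglomerular cells, ran from -2.50 (3B) through a median of 0.46 to 2.22 (4A), with A minus B of 3.10 in rat 3, 2.79 in rat 4 and -1.01 in rat 7. Gad2, a GABA-synthesising enzyme, ran from -2.01 through 0.26 to 1.75, with A minus B of 2.43 in rat 3, 2.16 in rat 4 and -1.07 in rat 7. Cck, the peptide cholecystokinin, ran from 0.43 through 2.63 to 3.41, with A minus B of 1.86 in rat 3 and -2.17 in rat 7. These 3 genes share the order of nostrils in rats 3, 4, 6, 7 and 8 with Slc32a1, while Th was opposite to it in rats 2 and 5, with 0.16 and 0.32.

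Outside the list, Sncb, beta-synuclein of presynaptic terminals, ranked 12, with 3.20 in rat 3 and -2.39 in rat 7. It had the same sign as Slc32a1 in all 7 rats.

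The astrocyte members were fewer. Gfap, the intermediate filament of astrocytes, ran from -1.01 through 0.36 to 1.66, with A minus B of 1.02 in rat 3, 2.24 in rat 4 and -0.41 in rat 7. The astrocyte members Mlc1, Aqp9 and Gfap were all higher in A in rats 3, 4, 6 and 8 and in B in rat 7. Aqp4, a water channel of astrocytes that was no member, had the opposite sign in rats 3 (-0.17), 4 (-0.38), 6 (-0.17) and 7 (0.09). Calb1, calbindin, a calcium-binding protein of periglomerular cells, was a member through 1 probe, with A minus B of 2.38 in rat 4, while its other 2 measured probes had mean absolute differences of 0.09 and 0.07. The Calb1 probes therefore disagree, and no level of the gene is drawn from them.

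In all, 63 of 150 members (42.0%) had the same 7 signs of A minus B as Slc32a1, among them 31 of the 40 neuron and synapse members and 22 of the 38 with no gene name. Over all probes measured, 1.57% had these 7 signs. The signs come from the differences that chose the members, so this is a description of how they group. When rat 3 was left out of the choice, 31 of the 40 neuron and synapse members and all 9 granulocyte members were still among the 150. Of the 40 neuron and synapse members, all 40 were higher in A in rats 3 and 6, 36 in rat 4, 39 in rat 8 and 1 in rat 7. Calcb, a calcitonin gene-related peptide of sensory neurons, stood apart with -2.37 in rat 2, -1.93 in rat 4 and 2.04 in rat 8.

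Other probes of the bulb and brain list were not members. Calb2, calretinin, was bright, with a median level of 9.60 and a mean absolute difference of 0.10, and the astrocyte genes Aqp4 and Slc1a2 had 0.21 and 0.12. Nrgn, neurogranin, had 0.37 and was opposite to Slc32a1 in rats 4 (-0.86) and 6 (-0.13). Camk2a had 0.16 and was opposite to Slc32a1 in rats 4, 5, 7 and 8, and RGD1562793 (Neurod6) had 0.30 and was opposite in 6 of 7 rats, rat 4 being the exception. The 2 probes of Reln, reelin, had 0.31 and 0.34 and were higher in A in rats 3, 4 and 6 and in B in rat 7, as Slc32a1 was. The olfactory bulb and brain list also had 12 probes measured on only some arrays. Of these, between 3 (6B and 7A) and 10 (2B) were called well above background on an array, and the nostrils of rat 3 had 7 and 4. In tissue RNA, fewer cells of a type and less RNA per cell cannot be told apart.

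**Figure D2:**
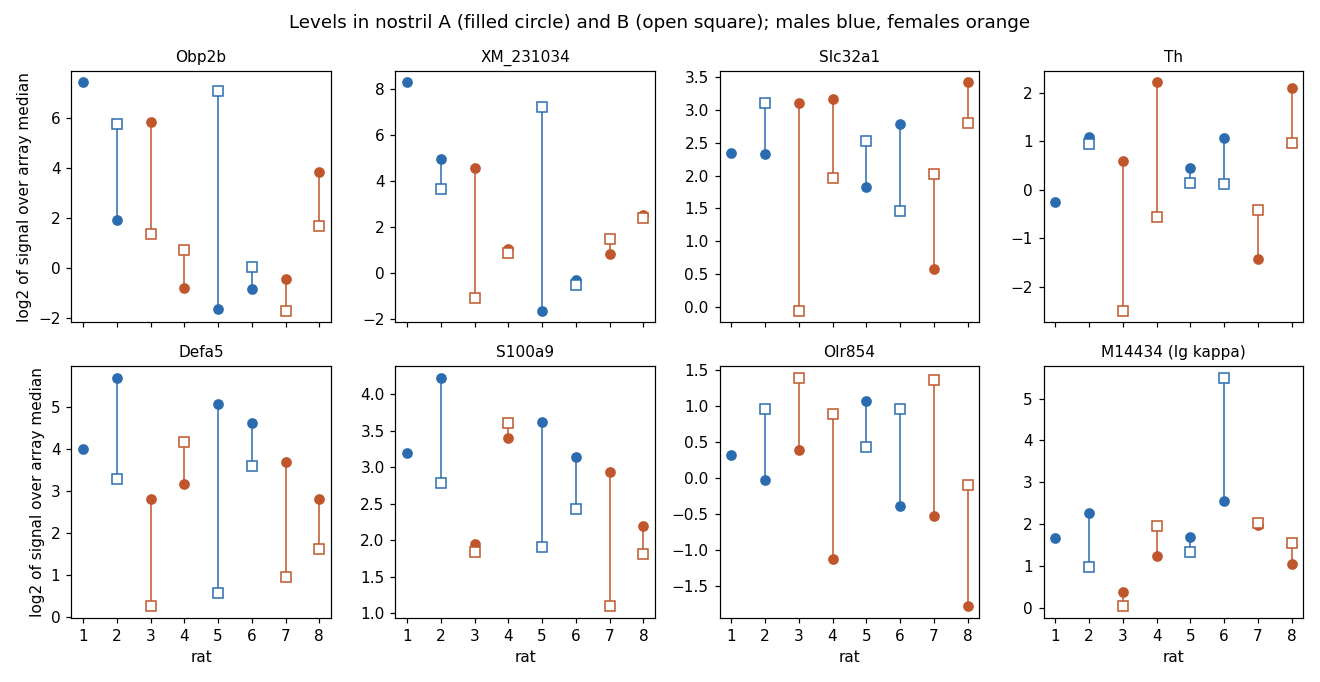
Each panel plots 1 transcript, with log2 of signal over the array median on the vertical axis and the rat on the horizontal axis. Filled circles are nostril A and open squares nostril B, males are blue and females orange, and no error bar applies because each nostril was measured once. Slc32a1 in nostril B of rat 3 (-0.06) and Obp2b in nostril A of rat 5 (-1.65) against B (7.08) are among the most unequal pairs.

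Granulocyte transcripts had another order. Defa, matched to Defa5, ranked 4, and its levels in A and B were 5.71 and 3.30 in rat 2, 2.81 and 0.26 in rat 3, 3.17 and 4.18 in rat 4, 5.07 and 0.59 in rat 5, 4.62 and 3.61 in rat 6, 3.70 and 0.96 in rat 7, and 2.83 and 1.62 in rat 8. Nostril A was higher in 6 of 7 rats, and rat 4 was the exception. Defensins are antimicrobial peptides stored in neutrophil granules.

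RatNP-3b, the neutrophil defensin whose probe is printed above, ranked 5, with A minus B of 4.66 in rat 5 and -0.90 in rat 4. Camp, the cathelicidin antimicrobial peptide, had 2.59 in rat 5 and 2.32 in rat 7. S100a9, the calprotectin subunit, ran from 1.09 (7B) through 2.79 to 4.23 (2A), with A minus B of 1.44, 0.11, -0.21, 1.71, 0.71, 1.84 and 0.38 in rats 2 to 8. Its partner S100a8 had 1.51, -0.10, -0.15, 1.89, 0.68, 1.99 and 0.21. All 9 granulocyte members were higher in A in rats 2, 5 and 7, and none was in rat 4.

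The eosinophil granule protein Prg2, major basic protein, ran from 3.19 through 5.11 to 7.35, with A minus B of 1.68 in rat 2, 2.34 in rat 7 and -1.40 in rat 4. Its relative Prg3 had 1.76, 2.99 and -1.61 in the same rats. Fcnb, a ficolin lectin of myeloid cells, had 1.34 in rat 2 and -1.21 in rat 4, and Car1, the carbonic anhydrase of red cells, had 1.72 and -0.59. Car1 is the only red cell gene among the members, since none of the 8 measured probes of the red blood cell list was a member.

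Of the other measured probes of the neutrophil and marrow list, Retnlg ranked 192 with a mean absolute difference of 0.75, Itgam had 0.45, Lcn2 0.26 and Prtn3 0.18. The 7 signs of S100a9 were shared by 8 members (5.33%), against 0.39% of all probes. They were Defa, RatNP-3b, Camp, Np4, S100a9, Car1, Il1rn and Gbp2.

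Lipocalins held the first 2 ranks by the mean over rats, while most nasal gland markers differed little. On the nasal gland list 1 of 9 measured probes was a member and the median of the mean absolute difference was 0.17, with 0.12 for Aqp5, a water channel of gland cells, 0.13 for Ccl28 and 0.17 for Azgp1. Obp2b, an odorant-binding lipocalin and the member on that list, ranked first with 3.27. Its level was 7.42 in nostril A of male 1, and in A and B it was 1.91 and 5.76 in rat 2, 5.82 and 1.36 in rat 3, -0.80 and 0.72 in rat 4, -1.65 and 7.08 in rat 5, -0.84 and 0.05 in rat 6, -0.46 and -1.73 in rat 7, and 3.83 and 1.66 in rat 8. A minus B was -8.73 in rat 5, where B was higher. These ranks rest on rat 5: without it the mean absolute difference was 2.36 for Obp2b and 1.35 for XM_231034, and Gys2 had 2.47.

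XM_231034 ranked 2, with A minus B of 1.31, 5.66, 0.17, -8.90, 0.19, -0.66 and 0.11 in rats 2 to 8. LOC171161, common salivary protein 1 (Csap1), had -3.37 in rat 5 and 2.55 in rat 8. LOC259246, matched to the major urinary protein gene Mup4l1, had -4.24 in rat 5, -3.23 in rat 6 and -2.69 in rat 8. All 4 of these lipocalin and salivary members were higher in A in rat 3 and in B in rat 5, and in the other rats their directions were mixed.

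Surface epithelium transcripts had yet another order. Muc5ac, a gel-forming mucin, was -3.79 (A minus B) in rat 2, -1.26 in rat 3, -1.76 in rat 5 and 1.14 in rat 8. Chia, acidic chitinase, was -2.11 in rat 2, -1.89 in rat 4 and 1.12 in rat 8. Calml3, a calmodulin-like protein of stratified epithelium, was -1.78, -1.43 and 1.15 in the same 3 rats. The other measured probe of the squamous list, RGD1561521 (dermokine, Dmkn), was -0.04, 1.14 and 0.00 in them. Of the respiratory secretory list, which holds Muc5ac, the bright Scgb1c1 was 0.16 in rat 2 and 0.30 in rat 5, and Plunc 0.01 in both. All 6 members of this role were higher in A in rat 8, and all 6 were higher in B in rats 2 and 7.

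**Figure D3:**
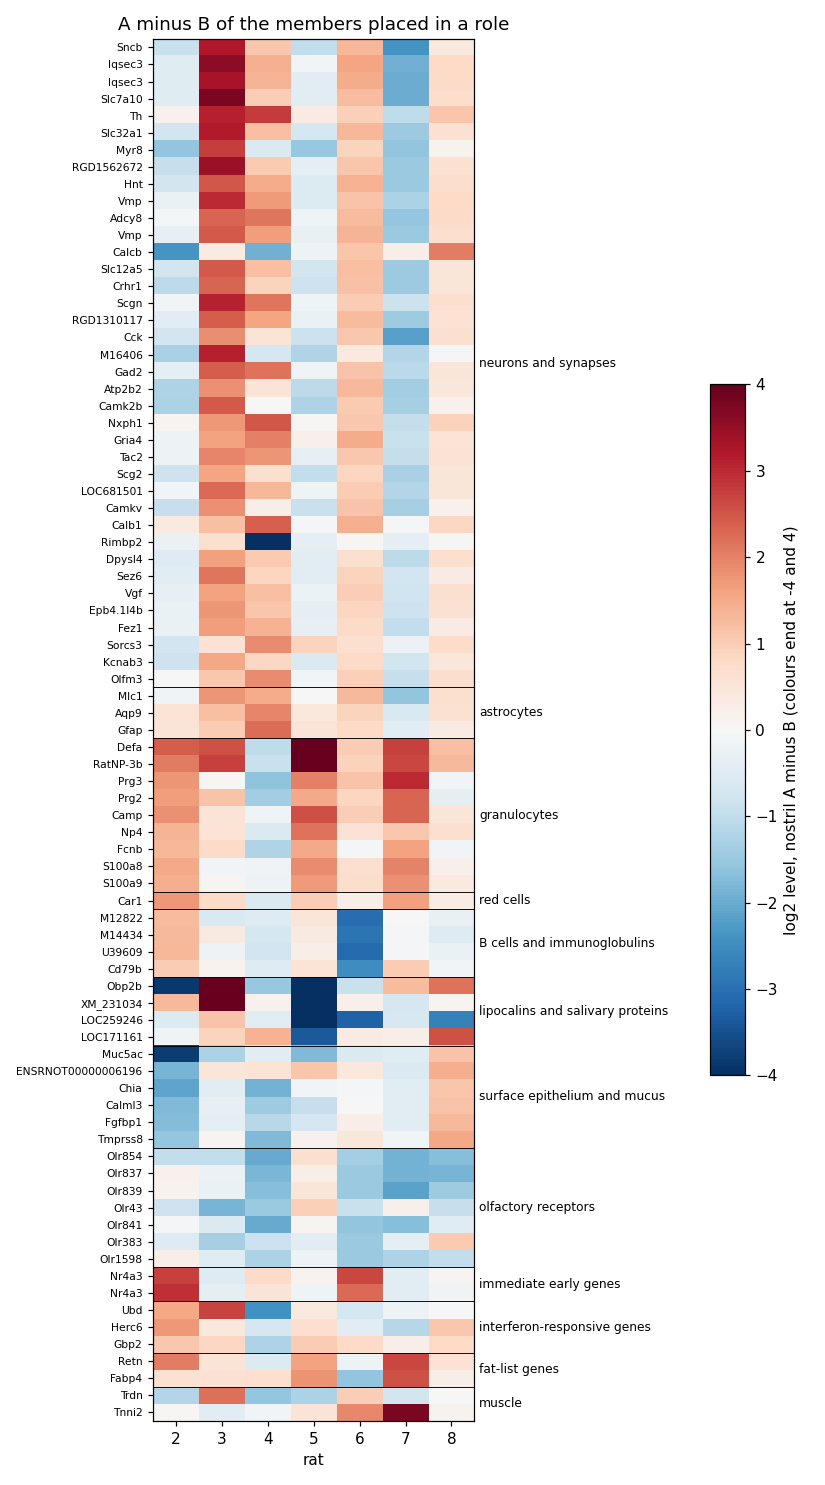
Rows are 81 of the 83 members placed in a role, columns are the 7 rats with both nostrils, and colour is the log2 level in A minus that in B, red for A higher and blue for B higher, with colours ending at -4 and 4. Neuron and synapse rows are red in rats 3 and 6 throughout, granulocyte rows are red in rats 2, 5 and 7, and the immunoglobulin rows are blue in rat 6.

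The B cell members had their highest level in 1 nostril. M14434, an immunoglobulin kappa chain transcript, was 2.56 in A and 5.50 in B of rat 6, and the highest level in any other rat was 2.26 in 2A. A minus B in rat 6 was -2.93 for M14434, -3.05 for M12822, -3.07 for U39609 and -2.49 for Cd79b, a subunit of the B cell receptor. The probes of the 3 kappa transcripts were not independent, since 2 of them share 40 bases. Blnk, the other measured probe of the B and plasma cell list, was no member. Its median level was 4.88, with A minus B of -0.17 in rat 6 and a mean absolute difference of 0.13.

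Odorant receptor members were mostly higher in nostril B. Olr854 ranked 17, with levels in A and B of -0.02 and 0.96 in rat 2, 0.40 and 1.40 in rat 3, -1.12 and 0.90 in rat 4, 1.08 and 0.44 in rat 5, -0.39 and 0.96 in rat 6, -0.52 and 1.36 in rat 7, and -1.78 and -0.09 in rat 8. Nostril B was higher in 6 of 7 rats, and rat 5 was the exception. Olr837, Olr839 and Olr841 had A minus B of -1.82, -1.71 and -2.01 in rat 4 and -1.90, -2.14 and -1.70 in rat 7.

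These 4 receptors lie within a stretch of chromosome 5 that holds 6 measured receptor probes below 80 Mb. Of these 6, all were higher in B in rats 3, 4, 6, 7 and 8, while 3 were in rat 2 and 1 in rat 5. The 4 members among them were chosen by these same differences. The other 2, Olr834 and Olr851, had mean absolute differences of 0.68 and 0.72 and were not members. The 3 receptor probes further along the chromosome, Olr856, Olr862 and Olr865, had 0.28, 0.41 and 0.42. The directions were not particular to this stretch. In rats 4, 6, 7 and 8, Olr1431 on chromosome 10 had A minus B of -1.04, -1.64, -1.37 and -0.76. Olr1598 on chromosome 13 had -1.27, -1.48, -1.23 and -0.98 in the same rats. On chromosome 1, Olr43 was higher in A in rat 7 (0.19) and Olr383 in rat 8 (1.05).

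Of all 620 measured receptor probes, 465 were higher in B in rat 4 and 338 in rat 7, or 75% and 54.5%, against 52.2% and 54.0% of all probes. In rats 2, 3, 5, 6 and 8 the shares of receptor probes higher in B were 47.6%, 50.2%, 49.8%, 68.4% and 50.3%, against 32.7%, 50.1%, 37.7%, 69.5% and 66.3% of all probes. The median of the mean absolute difference was 0.41 over receptors and 0.12 over all probes. Receptor probes were dim, with a mean level of 0.40 to 0.95 per array, against a median of 2.47 over all probes. The part of level in this difference was not tested. Olr43 and Olr383, on chromosome 1, and Olr1598, on chromosome 13, were the other receptor members, with mean absolute differences of 1.01, 0.87 and 0.84.

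**Figure D4:**
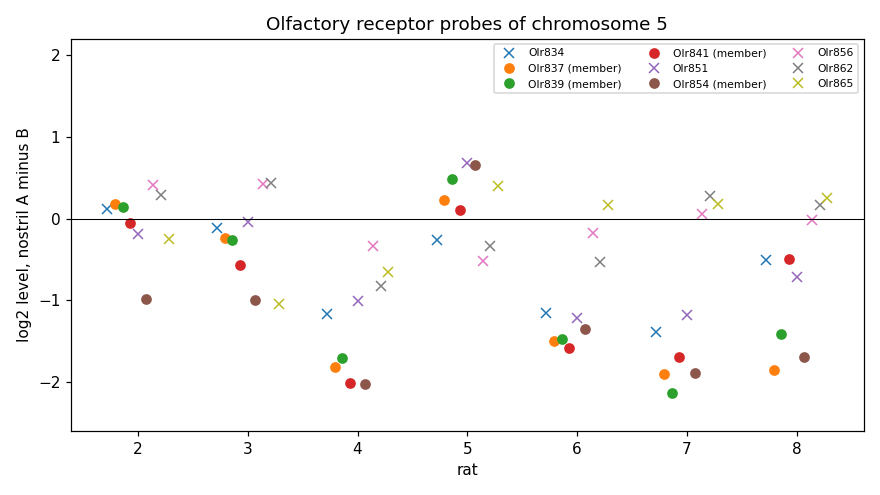
Points give the log2 level in nostril A minus that in B for each measured odorant receptor probe of chromosome 5, with the 7 rats on the horizontal axis and the 4 members as circles. The 4 members lie at or below -0.49 in rats 4, 6, 7 and 8, and in rat 5 all 4 lie above 0.

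Single genes outside these components also varied. Gys2, the liver form of glycogen synthase, ranked 3, with A minus B of 0.63, 3.80, -1.58, -1.08, 1.36, 4.73 and -2.70 in rats 2 to 8. Nr4a3, an immediate early nuclear receptor, was a member through both of its probes, with 2.93 and 2.74 in rat 2 and 2.28 and 2.67 in rat 6. Over the 22 measured immediate early probes the median was 0.37 in rat 2 and -0.03 in rat 6. Tnni2, fast skeletal troponin I, was 3.43 in 7A and -0.31 in 7B, with A minus B of -0.45 in rat 3. Trdn, triadin of muscle, was 2.21 in rat 3 but higher in B in 5 of 7 rats, with -1.54 in rat 4 and -0.73 in rat 7. The median over the 37 measured muscle probes was 0.01 in rat 3 and 0.08 in rat 7.

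Retn, resistin, and Fabp4, a fatty acid-binding protein, stand on the adipocyte list and had A minus B of 2.66 and 2.54 in rat 7 and -0.21 and -1.57 in rat 6, where the medians of the 12 measured adipocyte probes were 0.18 and -0.13. Ubd, Herc6 and Gbp2, genes induced by interferon, were 1.56, 1.74 and 1.08 higher in A in rat 2, and all were higher in B in rat 4. Over all 24 measured probes of the interferon-response list the median of the mean absolute difference was 0.26.

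Several members depended on scanner-flagged spots. A spot marked as not uniform or as an outlier occurred in 11 members (7.33%) and in 184 of all probes (0.732%). For 7 members, over 70% of the summed difference lay in 1 rat, and in all 7 a nostril of that rat carried a flagged spot. They were Cyp2j9, Evi1, Sox5, TC546386, BE097232, Rimbp2 and Pcgf6. The level of Cyp2j9 was 9.27 in 8B against a median of -1.57 over all arrays. Other measured probes of Cyp2j9 (Cyp2j3 in RefSeq), Evi1, Sox5 and Rimbp2 had mean absolute differences of 0.45, 0.11, 0.34 and 0.24. Without members that carry any flagged spot, 139 remained, and 62 of them had the 7 signs of Slc32a1.

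Members printed at 10 spots on each array give the only technical spread. The SD over the 10 spots had a median over arrays of 0.11 for Th, 0.14 for Crhr1, 0.05 for Cck and 0.09 for Gfap. On the array where it was highest it was 0.31, 0.57, 0.10 and 0.80. The differences of Cck (1.86) and Th (3.10) in rat 3, which helped to choose these members, were larger than the highest SD of either gene. That of Gfap in rat 7 (-0.41) was smaller in size than its highest SD. The spread between spots covers printing and hybridisation on 1 array and not dissection, RNA or labelling.

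Rat means of members had a wider range than those of all probes. The range of rat means over the 8 rats had a median of 1.81 log2 units over members and 0.44 over all probes, and it was 8.51 for Obp2b and 8.71 for XM_231034. The rat means average the same nostril values whose differences chose the members. A wider range can therefore follow from the choice, and no test was made of it.

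Between the sexes, which the choice of members did not use, no member passed at an adjusted p under 0.05 with the main processing. With normexp background 1, Fcnb, passed under 0.01 and 2 passed under 0.05. Levels averaged over the nostrils of each rat were compared with limma in 4 females and 4 males, with Benjamini-Hochberg adjustment over all 25133 probes. At an adjusted p under 0.01, 0 of 150 members and 4 of all probes (0.0159%) were called, and at an adjusted p under 0.05 these counts were 0 and 10 (0.0398%). Of the 4 slides 3 hold a single sex. A fit on single arrays with slide as a block therefore rests for sex on slide 1, which holds 1 female array. Its counts are not given. At an unadjusted p under 0.05 there were 14 members (9.33%), against 18.2% of all probes. The median female minus male difference was -0.17 over members and 0.012 over all probes, and 117 of 150 members were lower in females. This direction was not stable: the median over members was 0.39 with the slide block, 0.10 with nostril A only and 0.02 without rat 7.

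The lowest p-values were those of a myeloid, a red cell and an interferon-induced gene. Fcnb rat means were 1.81, 2.06, 1.62 and 1.95 in males and 0.59, 1.12, 0.89 and 0.50 in females, with no overlap. Its difference was -1.08 with an SE of 0.15 (limma, adjusted p = 0.0687), and -0.80 with normexp background (limma, adjusted p = 0.00751). Car1 was 1.07 in males and -0.42 in females, a difference of -1.50 with an SE of 0.25 (limma, adjusted p = 0.0829), also with no overlap. With normexp background the difference was -0.84 (limma, adjusted p = 0.0172). The 8 measured probes of the red blood cell list, which hold no member, had a median female minus male difference of -1.33, and 0 of them passed at an adjusted p under 0.01.

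Gbp2 was 3.64 in males and 2.98 in females, a difference of -0.66 with an SE of 0.15 (limma, adjusted p = 0.102), again with no overlap. Slide 1 is the only slide that holds both sexes, and there female 3 was below males 1 and 2 by 0.96 for Fcnb, 1.44 for Car1 and 0.66 for Gbp2. In a fit on single arrays with slide as a block and rat as a random effect, the differences were -0.84, -1.29 and -0.62. They rest on the 1 female array of slide 1. For Defa, which stood above with the granulocyte members, the difference was -1.43 (limma, adjusted p = 0.163).

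**Figure D5:**
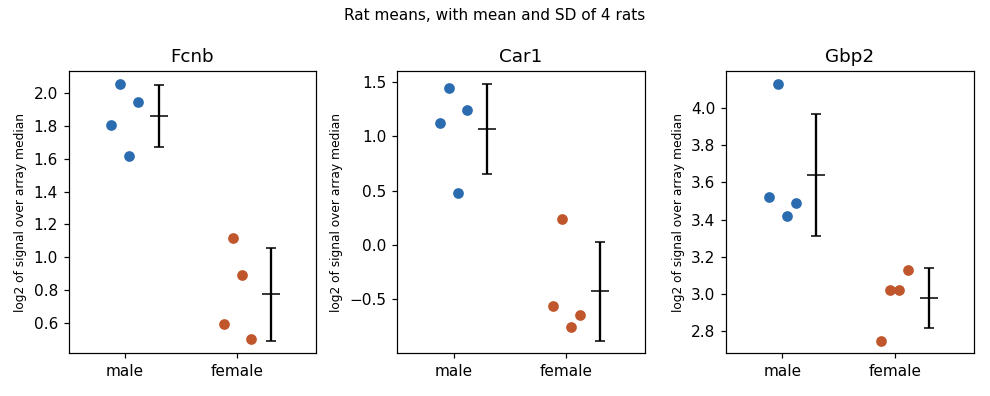
Points are rat means of Fcnb, Car1 and Gbp2 in 4 males and 4 females, as log2 of signal over the array median, and bars give the mean and SD of 4 rats. Males lie above females without overlap in each panel, while the adjusted p-values were 0.0687, 0.0829 and 0.102 in limma.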

How the data were processed

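RNA of each nostril was hybridised on 1-colour Agilent 44K arrays. The deposited intensity values are the processed signals of Agilent Feature Extraction (9.5.1.1 per the file headers, build rn3), which the authors' scanner software had already corrected for background. They were not normalized between arrays in these files. The table of ratios that the authors deposited (signal over array median over probe median) was used only as an alternative. The members and gene lists were chosen with earlier results of these data known.

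Control spots were left out, spots of a probe were averaged, and the signal was divided by the array median, floored at 0.1 and taken as log2. A probe was kept if most of its spots were well above background on all 15 arrays. Probes were named through RefSeq (10802 by accession, 5565 by symbol, 3716 by synonym), and 20929 of 41012 kept the name on the array. Named genes were the 20 members with the largest difference that have a gene name, up to 8 members and the 3 brightest other probes of each list, the 3 lowest p-values for sex, and the 3 probes on each side of the limit. Others named were chosen after their values were seen, and 2 members that the rule or a role would have named are not reported here. Sexes were compared on rat means with limma 3.58.1 in R 4.3.3 (lmFit, eBayes, Benjamini-Hochberg), which was tested on simulated data. Python 3.11.15 was used for the rest. The number of arrays limits the precision. Rats, not nostrils, were the replicates, and a slide block, other scalings, normexp, other filters and leaving out each rat were tried.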

Additional observations from a re-analysis of the deposited data

Results flagged for a closer look

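Of 42 groups of values examined for a sample far from the others, 7 had one. Chance alone gives about 1 in 20 in unselected groups, and that rate does not apply to differences between nostrils, which chose the members. Among the differences between nostrils, rat 8 stood apart for Cyp2j9 (-10.43), rat 7 for Evi1 (-9.28) and rat 6 for Sox5 (-8.91), each with a scanner-flagged spot in nostril B of that rat. Rat 5 stood apart for Olr854, with 0.65 where the other 6 rats were below 0.

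Among mean levels of the marker lists, female 4 was high for neutrophils and marrow (2.44 on the log2 scale) among the 4 females, male 6 was high for B and plasma cells (3.37) among the 4 males, and male 1, which has nostril A only, differed from the other males for odorant receptors (0.78).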

How the results depend on the processing

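The list of members depends on the background correction, the filter, the scaling and the summary over rats. With 75th percentile scaling 102 of the 150 were kept and with the median over rats 105. With normexp background 88 of the 150 were kept, and with probes well above background on 11 arrays 70 were kept, since 80 of its 150 places went to probes not measured on all 15 arrays. The granulocyte members kept were 8 and 5 of 9, neuron and synapse members 31 and 24 of 40, and lipocalins and salivary proteins 4 and 4 of 4. With normexp and with 11 arrays, immunoglobulins kept 1 and 0 of 4, odorant receptors 2 and 3 of 7, surface epithelium 3 and 1 of 6, interferon genes 0 and 1 of 3, and astrocytes 2 and 0 of 3. Without each rat in turn, 125 to 141 were kept, and without rat 3, whose nostrils lie on different slides, 31 of 40 neuron and synapse members. Leaving out members with a flagged spot, an alternative chosen after seeing the data, kept 139.

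The number of probes called for sex at an adjusted p under 0.01 was 4, and 0 with 75th percentile scaling, 2 with normexp, 0 with the authors' ratio table, 0 with nostril A only, 0 with the methods' t-test, 11 with arrays and rat as a random block, 460 with the slide block, and 0 to 3 without each rat. At 0.05 it was 10 against 1581 with the slide block. Among members the count was 0 in all of these except normexp, where 1 was called, Fcnb (adjusted p = 0.00751 in limma). The median sex difference of the members turned from -0.17 to 0.39 with the slide block, 0.10 with nostril A only and 0.02 without rat 7. The cause was not tested.

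The size of each list's median A minus B, averaged over rats, was recomputed for 3 lists. It was 0.18 for bulb and brain (SD over rats 0.18, 0.12 to 0.23 under all alternatives), 0.87 for neutrophils and marrow (SD 0.73, 0.69 to 0.99) and 0.11 for odorant receptors (SD 0.16), where it fell to 0.02 with 75th percentile scaling, 0.03 with normexp and 0.05 without rat 4. The median range between rats was 1.81 with a jackknife SE of 0.32, and it was 1.43 with 75th percentile scaling, 1.19 with normexp and 1.48 (without rat 7) to 1.80 without each rat. The alternatives that leave out a rat in these lists, and all those of the range between rats, were chosen after seeing the data. No paired analysis was possible because the sexes share no rat number. Dim probes limit what can be read from the members, whose median level lay below that of all probes.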
